A study of Mus musculus with 20 samples.

Results

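The 9 genes described here, Foxn1, Psmb11, Ccl25, Aire, Krt5, Krt8, Cldn3, Cldn4 and Ly75, mark the epithelial and other supporting cells of the thymus rather than its T cells. They were chosen by name: every probe set (a group of array oligos read as 1 value) whose platform annotation gives exactly 1 of these symbols was taken. That gave 73 of 167016 single-gene probe sets and 9 of 19607 genes. Ly75 has 35 probe sets, Aire and Ccl25 have 9 each, Foxn1 has 6, Cldn3 has 4, Cldn4, Krt5 and Krt8 have 3 each, and Psmb11 has 1. The arrays, 20 in all, were hybridised with RNA of thymocytes or of thymic tumours of C57BL/6 mice, and the series asks how loss of the transcriptional repressor Gfi1 changes expression after irradiation or in tumours. Notch tumours came from mice with a Notch1 transgene (Notch1-CT) that had also received the mutagen ENU, with 2 KO and 2 WT arrays, and ENU tumours from mice given ENU without the transgene, with 3 arrays labelled Gfi1 KO and 3 WT. Irradiated thymocytes had 3 KO and 3 WT arrays, and untreated thymocytes 2 KO and 2 WT arrays. All tumour mice carried floxed Gfi1 on both alleles, and those of the KO groups also carried Mx1-Cre, which interferon switches on in many tissues and which is not specific to T cells. The tumour mice of both genotypes were injected with pIpC, an inducer of interferon, and the cells were explanted 2 to 3 weeks later. The allele of the thymocyte KO mice, the radiation dose and the time between radiation and sampling are not stated in the sources used here. Nothing states that the arrays of a group came from separate mice, so the p-values may measure technical spread alone.

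The thymus teaches developing T cells through a framework of epithelial cells. FOXN1 is the transcription factor that this epithelium needs to form and to work, and in the cortex it drives PSMB11, the catalytic subunit of the thymoproteasome, and the chemokine CCL25, which calls progenitors that carry the receptor CCR9. In the medulla AIRE lets epithelial cells express antigens of other tissues, and the claudins CLDN3 and CLDN4, proteins of tight junctions, mark the lineage that gives rise to AIRE-positive cells. KRT8 and KRT5 are keratins used to stain cortical and medullary epithelium, and LY75 (DEC-205) is an endocytic receptor of cortical epithelium and of dendritic cells. Cldn4 has also been described in mouse double-positive thymocytes, so its RNA need not come from epithelium.

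Expression is given as the deposited log2 signal, in which 1 unit is a doubling if the log base is 2. The levels of different genes rest on different probes and are not compared with each other. Thymocyte markers were well measured, with 12 of 16 above the 40th percentile of the gene values on all 20 arrays. Of 38 further genes of thymic epithelium, 8 lay above it on all arrays, 20 on some and 10 on no array, beside 47.2% of all genes on all arrays. The name of the gene set thus says where these genes are known to act, not which cells gave the RNA here. Among the 9 genes, Cldn4, Krt5, Krt8, Aire and Ly75 lay above that percentile on all 20 arrays and Ccl25 on 13, while Foxn1, Psmb11 and Cldn3 lay below it on every array. All 9 were tested, since no filter on low values was used. Arrays of the same group correlated between 0.87 (KO Notch tumours) and 0.988 across probe sets. Gfi1 probe set 2, numbered by ID order, averaged 5.64 in untreated KO thymocytes against 11.95 in WT (limma adjusted p = 2.44e-07), and 6.70 in KO Notch tumours against 11.22 in WT (limma adjusted p = 0.034). On the KO Notch arrays it read 6.31 and 7.10, so both were low. Untreated KO thymocytes were below WT on Gfi1 probe sets 2 to 4. Irradiated KO thymocytes were below WT on Gfi1 probe sets 4 to 8, while probe set 2 averaged 12.73 against 11.50 in WT. The low stretches thus share probe set 4 of Gfi1 (-2.24 in untreated and -1.35 in irradiated KO thymocytes, limma adjusted p = 0.000473 and 0.00184) and otherwise differ, and whether both groups carry 1 allele was not tested. In the ENU tumours labelled Gfi1 KO, 0 of 8 Gfi1 probe sets passed in limma (smallest adjusted p = 0.391). The second KO Notch array stood apart in its cell markers: the mean of 8 B cell genes was 12.63 on it and 8.02 on the first KO Notch array, against 7.45 and 8.28 on the WT Notch arrays. The mean of 16 thymocyte genes was 9.35 on the second and 11.58 on the first KO Notch array, against 11.10 and 12.21 on the WT Notch arrays. Results on KO Notch tumours are given with and without that array. Among ENU tumours labelled Gfi1 KO, the mean of 14 macrophage genes was 10.62 on the first array and 9.09 and 8.95 on the others. On WT ENU arrays it was 9.05 to 9.19. The thymocyte mean was 10.89 on that first ENU array and 11.73 and 11.35 on the others of its group. Its part in the ENU results was not tested.

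Most of the 9 genes were close to flat over the series. Foxn1 ranged from 7.14 to 7.81 over the 20 arrays, Psmb11 from 7.03 to 7.39, Cldn3 from 7.37 to 7.87, Aire from 8.42 to 9.04, Krt5 from 8.04 to 8.56 and Krt8 from 8.85 to 9.67. Their SDs over 20 arrays, 0.11 for Psmb11 to 0.21 for Krt8, lay below the median of 0.233 over all genes. Foxn1, Psmb11 and Cldn3 lay below the 40th percentile on every array, where a flat signal does not show that the RNA was steady. Cldn4 stood at the other end, with a range of 8.31 to 10.99 and an SD of 0.82, larger than in 95.5% of genes. Ccl25 (SD 0.44, 7.24 to 8.70) and Ly75 (SD 0.37, 8.55 to 9.90) lay between.

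**Figure D1:**
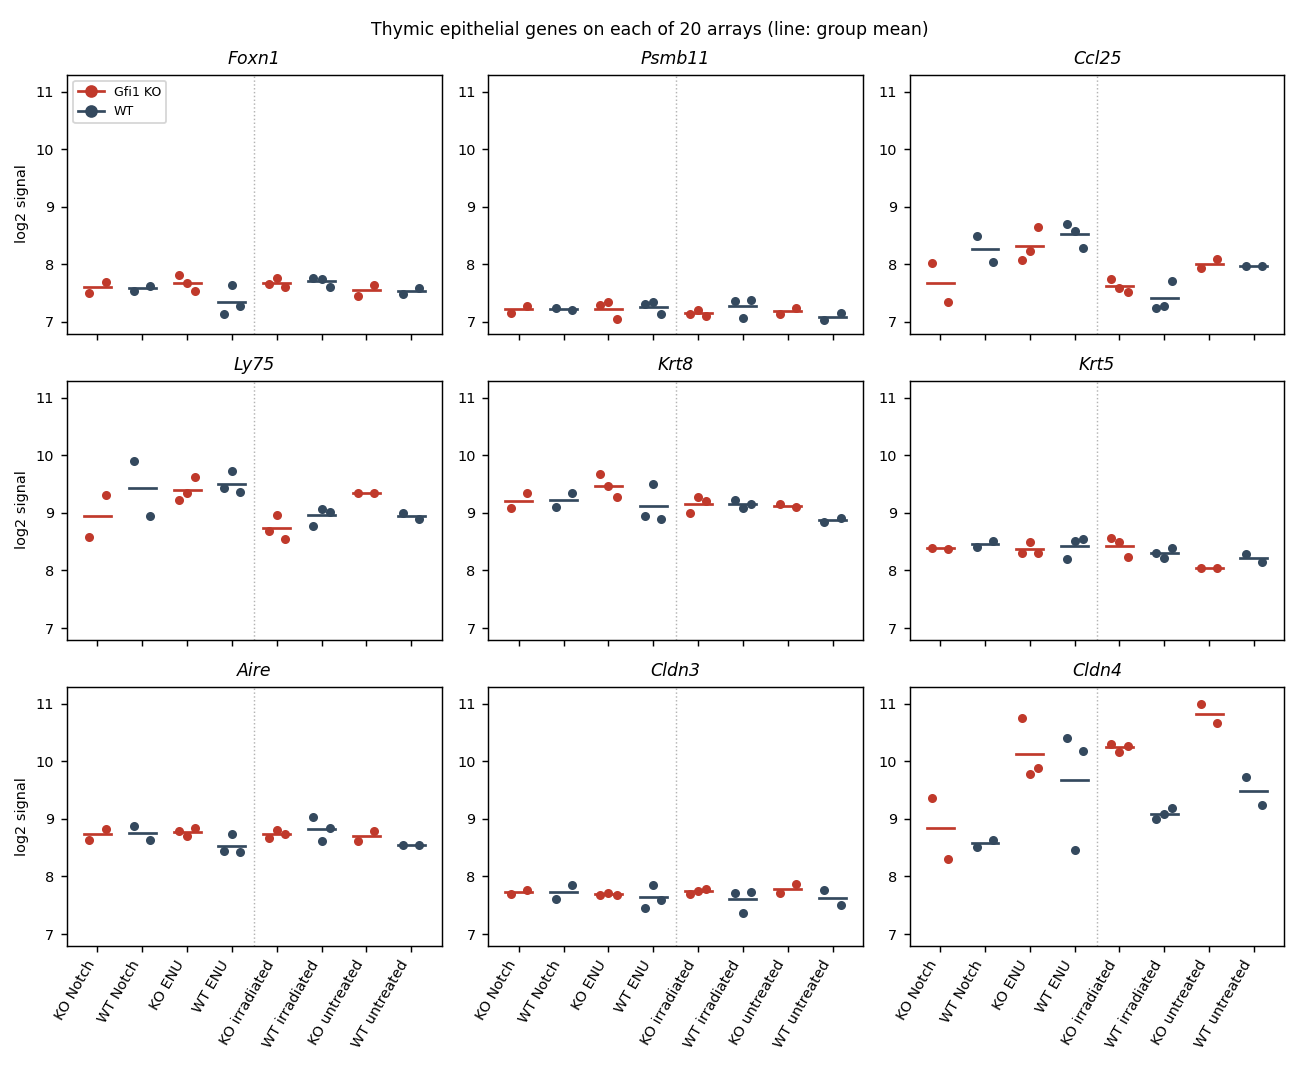
Log2 signal (y axis, 1 scale for all panels) of each of the 9 genes on each of the 20 arrays, by group (x axis), with red points for Gfi1 KO or labelled Gfi1 KO, dark points for WT and a line at each group mean. Cldn4 spans 8.31 to 10.99, with KO thymocytes above WT thymocytes, while Foxn1, Psmb11, Cldn3 and Aire stay within 0.67 of their own lowest array.

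Cldn4 was the gene of the 9 that passed the threshold between Gfi1 KO and WT thymocytes. Its level was 10.99 and 10.66 in untreated KO thymocytes, against 9.73 and 9.24 in untreated WT thymocytes. After irradiation it was 10.30, 10.17 and 10.26 in KO thymocytes, against 9.0, 9.09 and 9.19 in WT thymocytes. In both settings every KO array lay above every WT array, as held for 24% of all genes in untreated and 9.56% in irradiated thymocytes, and irradiated KO thymocytes still lay above untreated WT ones. The difference between KO and WT was 1.34 ± 0.15 (SE) in untreated thymocytes, a 2.53-fold higher signal (limma adjusted p = 2.71e-05, n = 2 each). In irradiated thymocytes it was 1.15 ± 0.12, or 2.21-fold (limma adjusted p = 1.1e-05, n = 3 each). In bulk RNA, more cells that express a gene and more RNA per cell cannot be told apart.

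The 3 Cldn4 probe sets gave like results. Their differences between KO and WT were 1.22, 1.19 and 1.42 in untreated thymocytes and 1.35, 1.16 and 1.03 in irradiated thymocytes, and all 3 passed in both when each probe set was tested on its own (limma adjusted p from 0.00171 to 0.0323). Of all single-gene probe sets, 2.68% passed in untreated and 4.42% in irradiated thymocytes. Leaving out any 1 array kept both gene-level calls, with differences of 1.09 to 1.58 in untreated and 1.10 to 1.19 in irradiated thymocytes. In untreated thymocytes this leaves 1 array in a group, which is then assumed to vary like the other thymocyte groups. In a fit over all 20 arrays both calls were lost (adjusted p = 0.507 and 0.419), because that fit pools the spread of the tumours: the SD within groups of Cldn4 was 0.75 in tumours and 0.18 in thymocytes.

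**Figure D2:**
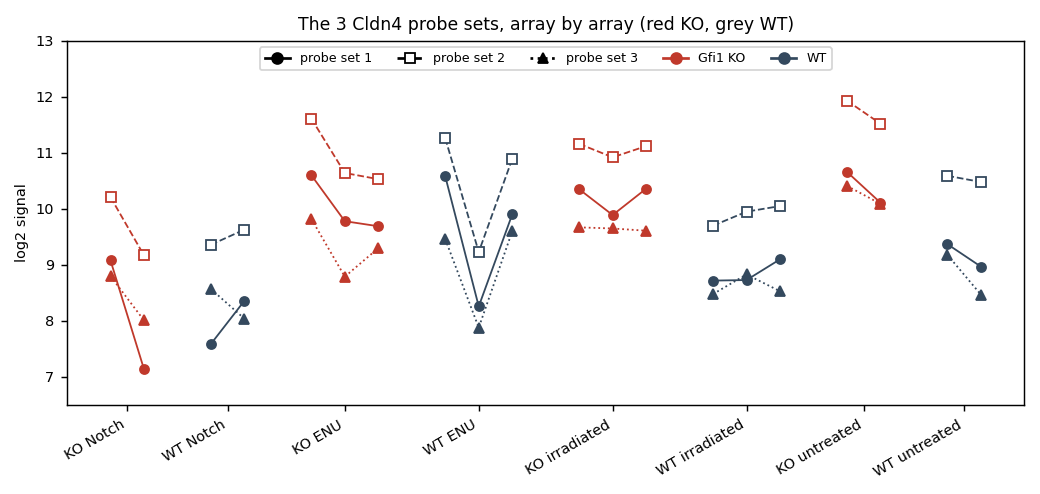
Log2 signal (y axis) of the 3 Cldn4 probe sets on each array, with the arrays of a group joined by a line (x axis, groups). Probe set 2 had 11.93 and 11.52 in untreated KO thymocytes against 10.59 and 10.48 in WT, and all 3 probe sets drop on the same WT ENU tumour array.

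The lowest Cldn4 levels were measured in tumours, which varied from array to array. The level was 9.36 and 8.31 in KO Notch tumours, against 8.51 and 8.64 in WT Notch tumours. It was 10.75, 9.78 and 9.88 in ENU tumours labelled Gfi1 KO, against 10.40, 8.46 and 10.18 in WT ENU tumours. The second WT ENU array lay about as low as the WT Notch tumours, on all 3 probe sets (8.26, 9.23 and 7.88 for Cldn4), and the groups overlapped in both tumour types. KO and WT differed by 0.26 ± 0.65 in Notch tumours (limma adjusted p = 0.987, interval -1.22 to 1.74) and by 0.46 ± 0.53 in ENU tumours (limma adjusted p = 0.672, interval -0.75 to 1.67). These intervals include 0 as well as the sizes seen in thymocytes. Without the second KO Notch array, rich in B cell markers, the Notch difference of Cldn4 was 0.79 and did not pass. From highest to lowest group mean, Cldn4 ran 10.83 (untreated KO), 10.24 (irradiated KO), 10.14 (ENU labelled KO), 9.68 (WT ENU), 9.49 (untreated WT), 9.10 (irradiated WT), 8.83 (KO Notch) and 8.57 (WT Notch). Of the 7 neighbouring pairs in that order, untreated against irradiated KO thymocytes and untreated against irradiated WT thymocytes did not overlap.

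Cldn3, which encodes the partner claudin and neighbours Cldn4 on chromosome 5, gave no difference past the threshold between KO and WT thymocytes. Its signal was low, at percentiles of 27.8 to 39.3 of the gene values over the 20 arrays. At such a level a change in Cldn3 RNA may not be seen. Cldn3 was 7.71 and 7.87 in untreated KO thymocytes against 7.76 and 7.50 in WT, and 7.70, 7.74 and 7.78 in irradiated KO thymocytes against 7.72, 7.37 and 7.73 in WT, with overlap in both settings. Its differences were 0.16 ± 0.14 (limma adjusted p = 0.661) and 0.13 ± 0.11 (limma adjusted p = 0.632), with intervals of -0.13 to 0.45 and -0.11 to 0.37. Over the 20 arrays Cldn3 and Cldn4 correlated at -0.04 (Pearson, arrays of shared groups, given as a description). With so low a Cldn3 signal, this value cannot decide whether the neighbours change together. The 250 bases before the annotated start of each gene are printed to set the neighbours side by side, from RefSeq on GRCm38.p6, 5′ to 3′ on the gene's strand. Capitals mark AATC or its reverse complement GATT, the core letters of GFI1 sites, and CANNTG, the E-box core bound by E proteins.
Cldn4, chr5:134946935-134947184, minus strand: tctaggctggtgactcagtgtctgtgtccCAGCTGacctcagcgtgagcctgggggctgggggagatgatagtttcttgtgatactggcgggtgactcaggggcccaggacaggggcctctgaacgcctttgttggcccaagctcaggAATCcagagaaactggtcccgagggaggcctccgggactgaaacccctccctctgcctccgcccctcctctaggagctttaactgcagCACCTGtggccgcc
Cldn3, chr5:134985964-134986213, plus strand: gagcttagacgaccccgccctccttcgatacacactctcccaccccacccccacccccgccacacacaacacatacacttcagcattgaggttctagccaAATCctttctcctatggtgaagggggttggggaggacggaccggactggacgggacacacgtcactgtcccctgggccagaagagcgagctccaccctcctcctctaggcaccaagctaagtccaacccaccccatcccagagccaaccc
The Cldn4 stretch holds AATC 102 bases before the start and CANNTG at 221 (CAGCTG) and 14 bases (CACCTG) before it. The Cldn3 stretch holds AATC 150 bases before the start and 0 copies of the E-box core. On either strand AATC is present in 69% of 32851 mouse promoter stretches of this length and CANNTG in 66.2%, and the marked letters do not overlap in these stretches. A match here is a description of letters, not evidence of binding.

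Over the 20 arrays, Nfia (r = 0.89), Sertad4 (r = 0.80) and Myo10 (r = 0.79) had the patterns most like that of Cldn4 by Pearson correlation. The 20 arrays fall into 8 groups, and the 3 genes were picked for this likeness, so their values are given as a description. Nfia, a transcription factor, averaged 10.28 in untreated KO thymocytes against 9.16 in WT, and 9.92 in irradiated KO thymocytes against 9.23 in WT. Sertad4 averaged 11.11 in untreated KO thymocytes against 7.78 in WT, and 11.38 in irradiated KO thymocytes against 8.14 in WT. Myo10, an unconventional myosin, averaged 10.31 in untreated KO thymocytes against 9.76 in WT, and 10.17 in irradiated KO thymocytes against 9.42 in WT. The likeness did not hold in every comparison. After irradiation Cldn4 differed by -0.39 in WT and -0.58 in KO thymocytes. Sertad4 differed by 0.36 and 0.27, Nfia by 0.08 and -0.36, and Myo10 by -0.34 and -0.14, not all past the threshold.

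Foxn1 and its cortical target Psmb11 gave no difference past the threshold in any of the 11 comparisons. Foxn1 was 7.46 and 7.65 in untreated KO thymocytes against 7.49 and 7.59 in WT, a difference of 0.01 ± 0.12 (limma adjusted p = 0.98). Its largest difference between KO and WT was in ENU tumours: 7.81, 7.68 and 7.53 in those labelled Gfi1 KO against 7.14, 7.64 and 7.27 in WT. These groups overlapped, and the difference of 0.33 ± 0.15 did not pass (limma adjusted p = 0.391). Psmb11, read by a single probe set, differed by 0.10 ± 0.12 between KO and WT in untreated and by -0.13 ± 0.10 in irradiated thymocytes. The intervals were -0.16 to 0.36 and -0.34 to 0.09. The signals of Foxn1 and Psmb11 lay below the 40th percentile on every array, where a change in their RNA may not be seen.

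Aire, Krt5 and Krt8 likewise differed little between genotypes. Aire was 8.61 and 8.79 in untreated KO thymocytes against 8.54 and 8.55 in WT, without overlap but with a difference of 0.15 ± 0.13 (limma adjusted p = 0.677). Krt8 was 9.15 and 9.10 in untreated KO thymocytes against 8.85 and 8.92 in WT, also without overlap, and 0.24 ± 0.12 higher short of the threshold (limma adjusted p = 0.305). These groups of 2 arrays part with KO above WT in 24% of all genes, as given above for Cldn4. Krt5 was 8.05 and 8.04 in untreated KO thymocytes against 8.29 and 8.15 in WT. The Krt5 difference of -0.18 ± 0.12 did not pass (limma adjusted p = 0.569). In irradiated thymocytes the differences of Aire, Krt5 and Krt8 between KO and WT were -0.09, 0.13 and 0.00, all with overlap.

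Among the 9 genes, then, 1 passed as higher in KO than in WT thymocytes in each setting and 0 as lower, and in both the gene was Cldn4. Over all genes 4.28% were called higher and 3.15% lower in untreated KO thymocytes, and 5.14% higher and 3.85% lower in irradiated KO thymocytes, so 1 of 9 is near the background as a count. The median difference of the 9 was 0.15 in untreated and 0.00 in irradiated thymocytes, against -0.02 over all genes in both. In Notch tumours 0 of the 9 passed, where 0% of all genes were called higher and 3 genes, or 0.0153%, lower. In ENU tumours 0 of the 9 and 0% of all genes were called in limma. Without the second KO Notch array 0 of the 9 passed in Notch tumours, with 31 of all genes. At an unadjusted p below 0.05 the count was 0 of the 9 in each tumour type, against 2556 of all genes in ENU and 1082 in Notch tumours.

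**Figure D3:**
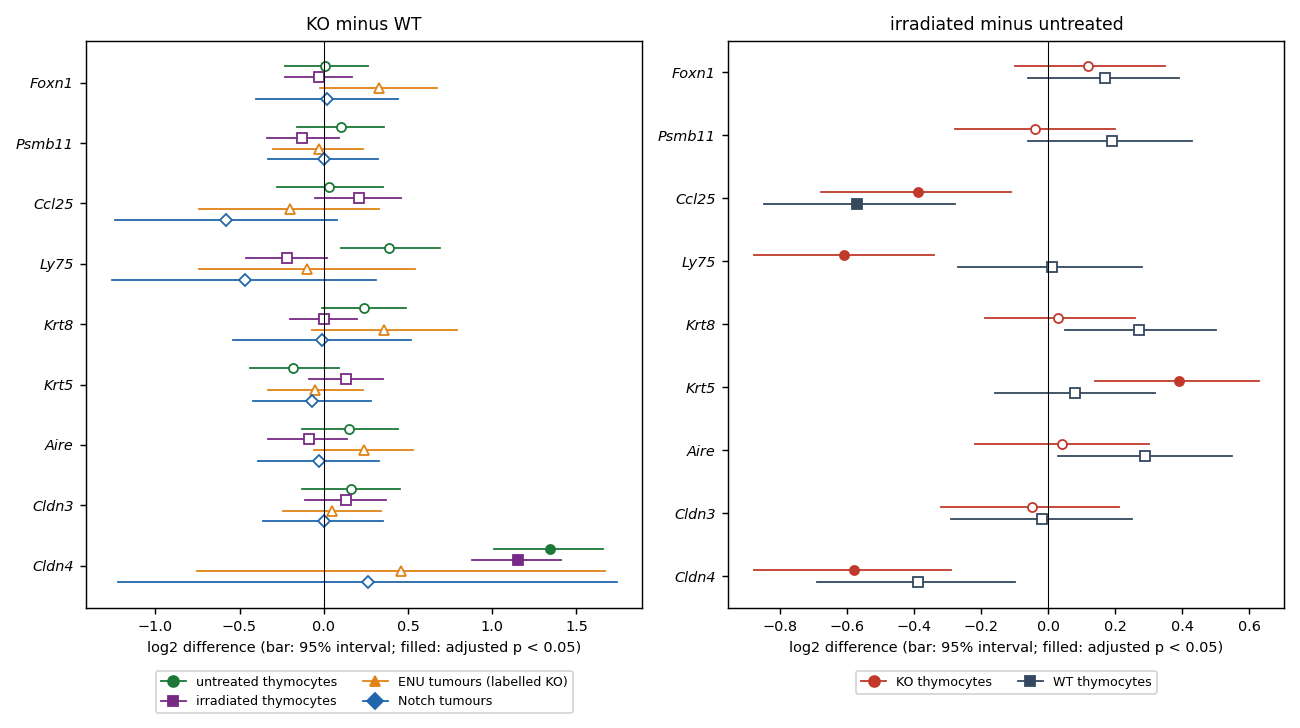
Log2 differences (x axis) of the 9 genes (y axis) with 95% intervals, KO minus WT in 4 settings (left) and irradiated minus untreated in each genotype (right), with filled symbols past an adjusted p of 0.05. On the left Cldn4 alone is filled, at 1.34 and 1.15 in thymocytes. On the right Ccl25 is filled in both genotypes, and Cldn4, Ly75 and Krt5 in KO thymocytes.

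Irradiated against untreated thymocytes asks how these genes respond to radiation. Ccl25 fell in both genotypes. Cldn4 and Ly75 fell and Krt5 rose in KO thymocytes. In KO thymocytes 3 of the 9 passed as lower and 1 as higher, beside 15.3% of all genes called lower and 11.6% called higher. In WT thymocytes 1 passed as lower and 0 as higher, beside 13.5% lower and 9.85% higher. The KO comparison sets side by side arrays whose low Gfi1 probe sets were alike only for probe set 4, and the part of this in the results below was not tested. The comparisons with untreated arrays share those arrays with the KO against WT comparison above.

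Ccl25 was 7.75, 7.59 and 7.52 in irradiated KO thymocytes, against 7.93 and 8.09 in untreated KO thymocytes. It was 7.24, 7.28 and 7.72 in irradiated WT thymocytes, against 7.98 on both untreated WT arrays. All irradiated arrays lay below all untreated ones of their genotype, as held for 25.9% of all genes in KO and 23.8% in WT thymocytes. The differences were -0.39 ± 0.13 in KO (limma adjusted p = 0.0425) and -0.57 ± 0.13 in WT thymocytes (limma adjusted p = 0.00705), and the 2 responses differed by 0.17 ± 0.19 (limma adjusted p = 0.874). Without the first untreated WT array the WT call for Ccl25 was lost (adjusted p = 0.0623). The KO call for Ccl25 was lost without irradiated KO array 2 or 3 or without either untreated KO array (adjusted p = 0.0796 to 0.248). The fall was uneven over the 9 Ccl25 probe sets. Probe set 5 alone passed on its own, with -1.07 ± 0.23 in KO and -0.90 ± 0.23 in WT thymocytes, while probe set 3 gave 0.30 and 0.31. Ccr7 and Ccr4, receptors on thymocytes for other thymic chemokines, passed in both genotypes too: Ccr7 by 0.57 in KO and 0.43 in WT thymocytes, and Ccr4 by -1.98 and -1.37. They were 2 of 4 chemokine receptors measured. Ccr9, which encodes the receptor for CCL25, was among the 4 and did not pass in either genotype. Of all genes 11.6% rose and 15.3% fell in KO thymocytes, and 9.85% rose and 13.5% fell in WT thymocytes.

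Ly75 was 8.68, 8.97 and 8.55 in irradiated KO thymocytes, against 9.35 and 9.34 in untreated KO thymocytes. It was 8.78, 9.07 and 9.02 in irradiated WT thymocytes, against 9.0 and 8.90 in untreated WT thymocytes. The WT groups overlapped. The KO groups did not, as held in this direction for 25.9% of all genes. The KO difference was -0.61 ± 0.13 (limma adjusted p = 0.0024) and held without any 1 array (adjusted p at most 0.0277). In WT thymocytes the difference was 0.01 ± 0.13 (limma adjusted p = 0.982). The test of the difference between the 2 responses gave -0.62 ± 0.18 and did not pass (limma adjusted p = 0.16, 0 of the 9 called beside 0.541% of all genes higher and 0.418% lower), though it passed without irradiated KO array 2 (Ly75, -0.73, adjusted p = 0.045). Between untreated groups the KO minus WT difference of Ly75 was 0.39 ± 0.14 and fell short of the threshold (limma adjusted p = 0.119). These groups did not overlap, as held in this direction for 24% of all genes. With the mean of the 35 Ly75 probe sets in place of their median, the untreated KO minus WT difference was 0.43 and passed (adjusted p = 0.037).

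Dendritic cells carry Ly75, and their markers moved in the same direction as Ly75 in some comparisons and not in others. Of 18 dendritic cell genes, 14 fell and 1 rose in irradiated against untreated KO thymocytes, beside 15.3% and 11.6% of all genes. Ly75 fell there. In WT thymocytes 11 fell and 1 rose, beside 13.5% and 9.85%, where Ly75 differed by 0.01. In WT ENU tumours against untreated WT thymocytes 3 fell and 0 rose, beside 7% and 6.6% of all genes. The list median there was -0.56, and Ly75 was 0.55 higher without passing. In untreated KO against WT thymocytes 12 rose and 0 fell, beside 4.28% and 3.15% of all genes. Among the 12 were the integrin Itgae (1.04), the MHC class II regulator Ciita (0.58) and Flt3 (0.60). The mean log2 signal of the dendritic cell list was 8.72 to 8.89 on irradiated KO arrays, against 9.5 to 9.52 on untreated KO arrays. It was 8.43 to 8.47 on irradiated WT arrays, against 9.01 to 9.13 on untreated WT arrays. On all arrays 8 of these 18 markers lay above the 40th percentile and 3 on no array. Their part in the Ly75 values was not tested.

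Ly75 probe sets did not all move alike. In KO thymocytes 29 of 35 were lower after irradiation and 10 of these passed on their own, with differences down to -1.59, beside 16.2% of all probe sets called in either direction. In WT thymocytes 21 of 35 were higher and 14 lower, with 2 passing each way, beside 11.9% of all probe sets called in either direction. Probe set 3 of Ly75 went against most others in KO thymocytes, with 9.59, 11.60 and 11.27 on irradiated KO arrays against 9.76 and 9.32 on untreated KO arrays. In WT thymocytes it was 11.95, 11.05 and 11.49 on irradiated arrays against 9.44 and 9.84 on untreated ones, a difference of 1.86 ± 0.50 (limma adjusted p = 0.0408). Probe set 19 of Ly75 averaged 1.72 ± 0.44 higher after irradiation in WT thymocytes (limma adjusted p = 0.032) and -0.93 ± 0.44 in KO thymocytes (limma adjusted p = 0.175). The gene-level value is a median over probe sets and does not show such differences.

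**Figure D4:**
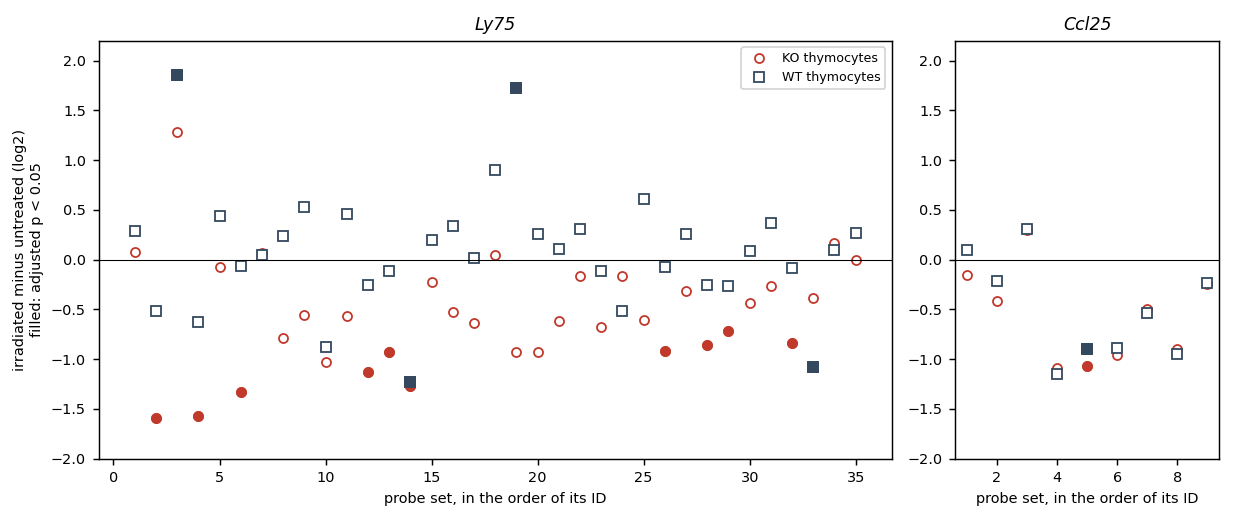
Irradiated minus untreated log2 difference (y axis) of each Ly75 (left) and Ccl25 (right) probe set in order of ID (x axis), circles for KO and squares for WT thymocytes, filled past an adjusted p of 0.05. For Ly75, 10 KO circles are filled and all lie below 0, while probe set 3 stands at 1.86 in WT; for Ccl25, probe set 5 is filled in both genotypes.

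Cldn4 was lower after irradiation in KO thymocytes by the array values given above, with a difference of -0.58 ± 0.14 (limma adjusted p = 0.00588). In WT thymocytes Cldn4 differed by -0.39 ± 0.14, also without overlap, and just missed the threshold (limma adjusted p = 0.0528). Groups did not overlap in this direction for 25.9% of all genes in KO and 23.8% in WT thymocytes. All 3 Cldn4 probe sets were lower in KO (-0.66 to -0.18) and in WT thymocytes (-0.64 to -0.22). In each genotype 1 of the 3 passed on its own, beside 16.2% of all probe sets called in KO and 11.9% in WT thymocytes. The 2 responses of Cldn4 differed by -0.19 ± 0.20 (limma adjusted p = 0.862). Without untreated KO array 1 the KO difference was -0.42 and was not called (adjusted p = 0.126). Krt5 was 8.56, 8.49 and 8.23 in irradiated KO thymocytes against 8.05 and 8.04 in untreated KO thymocytes, a difference of 0.39 ± 0.11 (limma adjusted p = 0.021). These groups did not overlap, as held in the same direction for 33.7% of all genes. That call for Krt5 rested on 2 of its 3 probe sets, with 0.46, -0.85 and 0.57. It was lost with the mean of the probe sets (0.06) and without irradiated KO array 1 or either untreated KO array (adjusted p = 0.0707 to 0.117). Aire (0.29 ± 0.12, limma adjusted p = 0.0989) and Krt8 (0.27 ± 0.11, limma adjusted p = 0.076) did not pass in irradiated WT thymocytes. Foxn1, Psmb11 and Cldn3 differed by -0.05 to 0.19 over both genotypes.

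WT tumours were also set against untreated WT thymocytes. Floxed Gfi1, ENU and pIpC are stated for the tumour mice and not for the untreated thymocytes. In these comparisons transformation cannot be told apart from those treatments or that genotype. In WT ENU tumours against untreated WT thymocytes 0 of the 9 passed, beside 6.6% of all genes called higher and 7% called lower. In WT Notch tumours 0 of the 9 passed, beside 1.52% and 3.55%. Ccl25 was 8.70, 8.58 and 8.29 in WT ENU tumours, above the 7.98 of both untreated WT arrays, with a difference of 0.54 ± 0.22 (limma adjusted p = 0.122). Ly75 was 9.43, 9.73 and 9.36 in WT ENU tumours against 9.0 and 8.90 in untreated WT thymocytes, a difference of 0.55 ± 0.25 (limma adjusted p = 0.173). Neither gene's groups overlapped, as held in this direction for 24.3% of all genes. Of its 35 probe sets 33 were higher in these tumours and 3 passed on their own, fewer than the 12.9% of all probe sets called there, led by probe set 19 of Ly75 (8.27, 7.80 and 7.98 against 5.69 and 4.28, limma adjusted p = 0.000971). Over the 20 arrays Ccl25 and Ly75 correlated at 0.66, as a description of arrays that share groups.

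In WT Notch tumours Ccl25 was 8.49 and 8.04 and Ly75 9.90 and 8.95, against the same untreated WT thymocytes, with differences of 0.29 ± 0.24 and 0.47 ± 0.27 (limma adjusted p = 0.544 and 0.359). Cldn4 differed by -0.92 ± 0.49, without overlap (27.4% of all genes in this direction) and without passing (limma adjusted p = 0.322). When the 2 groups alone were fitted, the same Cldn4 difference passed (adjusted p = 0.0486). WT Notch and WT ENU tumours differed in 0 of the 9 genes, beside 4 genes of all tested (0.0153% higher and 0.0051% lower). The largest of these differences was that of Cldn4, at -1.11 ± 0.59 (limma adjusted p = 0.717). The KO effect differed between Notch and ENU tumours for 0 of the 9, beside 0% of all genes higher and 0.0051% lower. KO Notch tumours had 8.03 and 7.34 for Ccl25 against 8.49 and 8.04 in WT, and the difference of -0.58 ± 0.29 did not pass (limma adjusted p = 0.863). Without the second KO Notch array, which was the one with high B cell markers, the Ccl25 difference was -0.24. Of 13 fibroblast genes 3 rose and 0 fell in WT ENU tumours against untreated WT thymocytes, beside 6.6% and 7% of all genes. The 3 were Fbln1 (3.37), Pdgfrb (4.0) and Col1a2 (1.78). In WT Notch tumours Fbln1 rose alone (2.55), beside 1.52% of all genes called higher. Of 38 further thymic epithelial genes, 0 passed in either tumour type.

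Those 38 genes, which include other keratins, the pharyngeal pouch factors and medullary regulators, were read against the shares of all genes called. In untreated KO against WT thymocytes 5 of 38 rose and 0 fell, beside 4.28% and 3.15% of all genes, with a median of 0.04 against -0.02 over all genes. Examples were Eya1, a transcription cofactor of the thymus primordium (1.79), Cdh1, which encodes E-cadherin (0.69), and Cd83 (0.60), which is also a marker of dendritic cells. In irradiated KO against WT thymocytes 5 rose and 1 fell, beside 5.14% and 3.85%, with Eya1 at 2.76, Cd83 at 1.07 and Spib, a transcription factor of lymphoid and of some medullary epithelial cells, at -0.93. After irradiation 7 of 38 rose and 2 fell in KO thymocytes, beside 11.6% and 15.3%, including Eya1 (0.98), Cd80 (0.69) and the epithelial adhesion protein Epcam (-0.98). In WT thymocytes 4 rose and 2 fell, beside 9.85% and 13.5%, including Spib (1.15), Epcam (-0.92) and the cathepsin Ctsl (-0.51).

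Among 21 other genes of claudins and tight junctions, few passed between genotypes, near the share of all genes. In untreated KO against WT thymocytes 1 of 21 rose, Cldn1 (1.04 ± 0.14, limma adjusted p = 0.000168), and 1 fell, Cldn10 (-1.04 ± 0.13, limma adjusted p = 6.53e-05), beside 4.28% and 3.15% of all genes. In irradiated thymocytes Cldn1 alone passed (0.90 ± 0.12, limma adjusted p = 6.4e-05), beside 5.14% of all genes called higher. After irradiation Cldn1 fell in KO (-1.35) and WT thymocytes (-1.20), as did Cldn10 (-0.58 and -1.34). These genes were among 4 falls and 4 rises in KO thymocytes, beside 15.3% and 11.6% of all genes. In WT thymocytes there were 2 and 2, beside 13.5% and 9.85%. In tumours against untreated WT thymocytes Cldn10 was the 1 gene of the 21 that passed. It differed by -1.30 in WT ENU and -1.55 in WT Notch tumours, beside 7% and 3.55% of all genes called lower.

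Of the 12 FOXN1 target genes, which include Ccl25 and Psmb11 themselves, 1 rose in untreated and 1 in irradiated KO against WT thymocytes, in both Cd83. The shares of all genes called higher there were 4.28% and 5.14%. After irradiation 1 rose and 1 fell in KO thymocytes (Cd83 at 0.39 and Ccl25), beside 11.6% and 15.3% of all genes. In WT thymocytes 1 rose and 2 fell (the Notch ligand Dll4 at 0.43, Ctsl at -0.51 and Ccl25), beside 9.85% and 13.5%. The other catalytic proteasome subunits, 6 in all, were those of the constitutive proteasome and of the immunoproteasome. After irradiation 4 of these 6 fell and 0 rose in KO thymocytes (15.3% of all genes fell), among them the immunoproteasome subunits Psmb10 (-0.83) and Psmb8 (-0.67) and the constitutive Psmb5 (-0.41). In WT thymocytes 3 of 6 fell and 0 rose (13.5% of all genes fell), Psmb10 (-0.72), Psmb9 (-0.45) and Psmb5 (-0.37), and KO against WT gave 0 of 6 in either setting. Of 14 tissue antigens listed for AIRE, 1 rose (Csn2, 0.54) and 1 fell (S100a8, -3.56) in untreated KO against WT thymocytes. Not every antigen on that list need depend on AIRE. Of all genes 4.28% rose and 3.15% fell in this comparison. S100a8 is also a neutrophil gene, and 8 of 9 granulocyte genes fell in the same comparison.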

How the data were processed

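One-colour array expression was measured in 10 thymocyte and 10 tumour samples. The deposited values, 1 for each probe set on each array, were read as log2 signal. Log base, background correction and normalization are not stated in what was given. Per the labels, RNA was amplified with a NuGEN kit and labelled with biotin. Array medians over genes ran from 8.32 to 8.44.

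Probe sets with 1 platform symbol were used; 3388 named several genes and 11654 no gene. Each was centred on its mean over 20 arrays. Per gene, the median over the centred probe sets was taken on each array and put back on the level of their overall mean. All 19607 genes were tested with limma 3.58.1 (lmFit, eBayes) in R 4.3.3, data.table (version 1.17.8), with Benjamini-Hochberg adjustment over all genes and a threshold of 0.05. Thymocyte comparisons used the 10 thymocyte arrays, tumour ones the 10 tumour arrays, and tumours against thymocytes all 20. Errors after ± are standard errors of log2 differences, and intervals are 95%. A gene after which 1 value stands in parentheses has that log2 difference and passed, unless stated otherwise. The fit was tested on simulated data. The number of arrays limits the precision.

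The 9 genes, the gene lists and the tests were chosen with earlier results of these data known. Named beside the 9 are Gfi1, up to 3 genes per list and comparison with the smallest p, and the 3 genes most correlated with a member whose SD is at least 0.5. Promoters are from RefSeq, matched by symbol, read in Python 3.11.15. Alternatives were a filter on low values (40th percentile in at least 2 arrays), quantile normalization, mean of probe sets, other arrays in the fit, variance trend, replicate block, and leaving out arrays.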

Additional observations from a re-analysis of the deposited data

How the results depend on the processing

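In the 4 comparisons with any of the 9 genes past the threshold, 30 of 44 alternative counts stayed within 1.5 times the reported count, and 0 called differences changed sign. In the other 7 the reported count was 0, and 88 of 90 alternatives gave 0 too, which says little where few genes were called at all. With all 20 arrays in the fit the count was 0 for KO against WT in untreated thymocytes (134 genes called in all) and in irradiated thymocytes (162), and 0 for irradiated against untreated in KO (832) and WT thymocytes (568); this fit pools the spread of the tumours. Fitting only the groups compared gave 1 for WT Notch tumours against untreated WT thymocytes (1611 genes). The mean of probe sets gave 2 in untreated KO against WT thymocytes (Cldn4 and Ly75). For irradiated against untreated WT thymocytes the count was 2 with a filter on low values, with quantile normalization, with a variance trend and with the replicate block. Leaving out 1 array gave 0 to 3 there (0 without WT untreated 1, 3 without WT irradiated 2), 1 to 3 in KO thymocytes (1 without KO untreated 1, 2 without KO untreated 2), and 0 to 1 for the difference between these responses (1 without KO irradiated 2). Ly75 alone passed in that last case, and the cause of these changes was not tested.

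Genes called in all, over all 19607, moved with single arrays: 716 to 786 in untreated KO against WT thymocytes (1456 with all arrays), 1 to 1265 in KO against WT Notch tumours (3; 1265 without KO Notch array 1, 31 without the B cell rich array 2), 2538 to 4787 after irradiation in KO thymocytes (5274) and 1790 to 5904 in WT (4571), 59 to 183 for the difference of these responses (188), 1 to 378 for the difference in KO effect between tumour types (1), 1 to 4 between WT Notch and ENU tumours (4), 0 to 2 between ENU tumours labelled Gfi1 KO and WT (0), and 680 to 2420 (2667) and 87 to 829 (994) in WT ENU and WT Notch tumours against untreated WT thymocytes. With all 20 arrays 533 genes passed between ENU tumours labelled Gfi1 KO and WT, 162 between KO and WT Notch tumours, 247 between WT Notch and ENU tumours, 119 for the difference in KO effect and 7 for the difference in irradiation response. Between KO and WT Notch tumours 5 genes passed with quantile normalization or the mean of probe sets and 2 with the filter, and between WT Notch and ENU tumours 6 with quantile normalization. Chosen after seeing the data, a tumour fit without the KO Notch tumours called 24 genes between ENU tumours labelled Gfi1 KO and WT and 34 between WT Notch and ENU tumours, 0 of the 9 among them, and a tumour fit without the ENU tumours labelled Gfi1 KO called 1 gene each between KO and WT Notch and between WT Notch and ENU tumours, again 0 of the 9.

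Same-numbered arrays deviated from their group means with correlations of -0.41 to 0.19. In a group of 2 arrays the deviations mirror each other, so these values cannot decide whether the numbers pair the samples. The main fits assumed no pairing. The replicate block called Cldn4 in irradiated against untreated WT thymocytes (-0.42, adjusted p = 0.0455) and 3260 genes in all there, 110 for the difference in irradiation response, 1 between KO and WT Notch tumours and 2 between WT Notch and ENU tumours; the other 10 counts of the 9 genes kept their value. With 2 or 3 arrays a group, a miss does not show that a gene did not differ.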

Other observations

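Epithelial splicing regulators, which are no thymic markers, moved between genotypes while the keratins did not pass. Esrp1 averaged 8.81 in untreated KO thymocytes against 6.71 in WT, a difference of 2.10 ± 0.11 (limma adjusted p = 4.8e-09), and 10.49 in irradiated KO thymocytes against 7.53 in WT, a difference of 2.96 ± 0.09 (limma adjusted p = 7.04e-12). It was also higher after irradiation, by 1.69 in KO and 0.83 in WT thymocytes. Esrp2 averaged 8.57 in untreated KO thymocytes against 9.41 in WT (-0.85 ± 0.15, limma adjusted p = 0.00148). Of the 14 genes of other endodermal and glandular epithelium on this list, 1 rose and 1 fell in untreated KO against WT thymocytes. In irradiated thymocytes 1 rose and 0 fell, and the list medians were -0.05 and -0.01. Of all genes 4.28% rose and 3.15% fell in untreated KO thymocytes, and 5.14% and 3.85% in irradiated ones.

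Fibroblast genes were read beside the epithelial ones. Fn1, which encodes fibronectin, averaged 9.83 in untreated KO thymocytes against 8.49 in WT (1.34 ± 0.14, limma adjusted p = 1e-05), and 10.72 in irradiated KO thymocytes against 8.64 in WT (2.08 ± 0.11, limma adjusted p = 4.36e-09). Of the 13 fibroblast genes 3 rose and 0 fell in untreated KO against WT thymocytes, beside 4.28% and 3.15% of all genes. In irradiated thymocytes 4 rose and 0 fell, beside 5.14% and 3.85%. Of the 12 endothelial genes 0 passed in either setting.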
